A study of Mus musculus with 15 samples.

Results

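Contactins and contactin-associated proteins (CASPRs) are 2 families of neuronal cell adhesion molecules. The 10 genes described here, the contactins Cntn1 to Cntn6 and the CASPR genes Cntnap1, Cntnap2, Cntnap4 and Cntnap5a, were chosen by name out of 53337 genes, and the level of Cntn6 in females was part of the reason they were chosen. RNA came from the dorsal forebrain of C57BL/6J embryos at embryonic day (E) 18, the offspring of dams infused subcutaneously through pregnancy with arginine vasopressin (AVP), a model of preeclampsia, or with saline, the vehicle. Each of the 15 libraries was made from 1 brain. Of the males 4 were exposed to AVP and 4 to saline, and of the females 3 and 4. An AVP female that the study left out as an outlier was not analysed here. Per the study's methods the brains of a group came from different litters, 8 litters in all, so males and females can be littermates, and the fits across the sexes carry no litter term because the sources used here do not tie libraries to litters. Levels are in TPM (transcripts per 1000000 transcripts), which are scaled for transcript length, so levels of different genes can be compared.

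Contactins are immunoglobulin-domain proteins held on the outer membrane by a lipid anchor, with no cytoplasmic part of their own, and they act through partners that span the membrane. CASPRs are such partners: large relatives of the neurexins that cross the membrane and bind scaffold proteins inside the axon. In myelinated nerve, contactin-1 with CASPR1 builds the paranodal junction, and contactin-2 with CASPR2 holds potassium channels beside it, while before myelin forms, as at E18, several contactins take part in axon growth, fasciculation and synapse formation.

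Before the results, 1 library has to be set apart. Saline male 3 carried the transcript of X inactivation, Xist, at 266 TPM, inside the range of the 7 females (174 to 294 TPM) and far from the 7 other males (0.121 to 1.13 TPM), and its 4 Y-linked genes summed to 0.489 TPM against 102 to 155 TPM in the other males. It is called by its label below, and the male differences are also given without it. Dorsal pallium markers summed to 1120 to 1558 TPM in every library, while the 5 midbrain and hindbrain markers were all under 0.5 TPM throughout. Choroid plexus markers ranged from 8.35 to 2277 TPM between libraries, with Prlr under 0.5 TPM in all of them. Striatal projection neuron markers summed to between 24.9 and 170 TPM. The library numbers in the labels form 2 runs, 1 to 8 and 13 to 20, and each group has libraries in both.

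Several members have more than 1 start site, and that decided what their summed levels were made of. Cntn1, which encodes contactin-1, has 3 start sites whose transcripts have the same coding length, 3060 nt, on the plus strand of chromosome 15. Cntnap2, which encodes CASPR2, has a start for the full-length protein and another 2184 kb downstream, on the plus strand of chromosome 6, from which a short coding sequence of 324 nt is read. The bases before these starts are shown because the estimated share of each gene's RNA differed so much between them. They are from RefSeq (GRCm38.p6), 5′ to 3′, with CG dinucleotides in capitals.
Cntn1 start 1, chr15:92050915-92051164: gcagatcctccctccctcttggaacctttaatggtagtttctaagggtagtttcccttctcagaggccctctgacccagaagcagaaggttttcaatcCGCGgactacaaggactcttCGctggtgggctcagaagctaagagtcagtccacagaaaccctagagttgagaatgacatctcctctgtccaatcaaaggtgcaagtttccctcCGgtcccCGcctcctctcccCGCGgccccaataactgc
Cntn1 start 2, chr15:92127878-92128127: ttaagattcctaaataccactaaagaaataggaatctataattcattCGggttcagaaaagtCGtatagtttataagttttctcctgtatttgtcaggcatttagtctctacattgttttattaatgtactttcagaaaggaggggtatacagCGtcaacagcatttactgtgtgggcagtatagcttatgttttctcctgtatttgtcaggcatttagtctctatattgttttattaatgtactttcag
Cntn1 start 3, chr15:92161107-92161356: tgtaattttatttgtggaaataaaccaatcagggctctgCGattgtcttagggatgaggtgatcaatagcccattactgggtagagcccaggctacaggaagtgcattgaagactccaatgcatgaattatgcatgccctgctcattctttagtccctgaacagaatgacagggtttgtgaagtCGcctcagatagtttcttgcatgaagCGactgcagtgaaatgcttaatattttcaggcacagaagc
Cntnap2 full-length start, chr6:45059811-45060060: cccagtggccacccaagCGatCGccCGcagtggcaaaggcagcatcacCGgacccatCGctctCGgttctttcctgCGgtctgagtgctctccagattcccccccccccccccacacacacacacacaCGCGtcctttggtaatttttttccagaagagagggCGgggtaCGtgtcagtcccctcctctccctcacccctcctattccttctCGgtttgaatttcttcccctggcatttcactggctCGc
Cntnap2 internal start, chr6:47244146-47244386: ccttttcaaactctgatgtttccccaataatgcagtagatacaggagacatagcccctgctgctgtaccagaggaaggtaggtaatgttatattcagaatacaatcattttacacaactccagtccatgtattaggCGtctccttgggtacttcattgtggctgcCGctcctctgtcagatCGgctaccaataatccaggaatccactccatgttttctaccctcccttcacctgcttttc
Over 15 libraries, transcripts beginning within 100 bases of the Cntn1 starts held an estimated 66.9%, 21.7% and 11.4% of the gene's TPM, in the order shown. The transcripts of a gene share most of their sequence, so these shares rest on how kallisto divided the reads. For Cntnap2 the full-length start held 4.16% and the internal start 92.6%. In RefSeq's windows of 300 bases (250 before and 50 after a start), the first Cntn1 start had 9 CG dinucleotides and the other starts 5 and 4. The full-length Cntnap2 start had 14 and the internal start 3, against a median of 7 over 32851 mouse windows. The letters TATAAA, searched on both strands, were found in the window of the second Cntn1 start alone among these 5, and in 13.6% of all windows.

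Contactin-2 RNA stood far above the rest of the family. In the 8 saline libraries Cntn2 averaged 193 TPM, with a lowest of 155, a median of 192 and a highest of 232. Cntn2 encodes the adhesion molecule also called TAG-1, known from the axons of corticofugal neurons. Cntnap2 followed at 36.4 ± 5.30 TPM (SD, n = 8) and Cntn1 at 26.0 ± 3.52. Then came Cntn6 at 12.7 ± 1.92 and Cntnap4 at 8.11 ± 0.983. Cntn6 encodes contactin-6, or NB-3, a ligand of the receptor phosphatase encoded by Ptpra and of Chl1. Cntnap4 encodes a CASPR known from interneuron synapses. Cntn3 at 5.58 ± 0.956, Cntn5 at 5.16 ± 1.05 and Cntn4 at 4.15 ± 0.840 TPM formed a low group. All 3 encode contactins known to bind amyloid precursor family or receptor phosphatase partners in developing neurons. Cntnap5a had 2.20 ± 0.514 TPM and Cntnap1, the paranodal CASPR of myelinated axons, 0.907 ± 0.737.

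**Figure D1:**
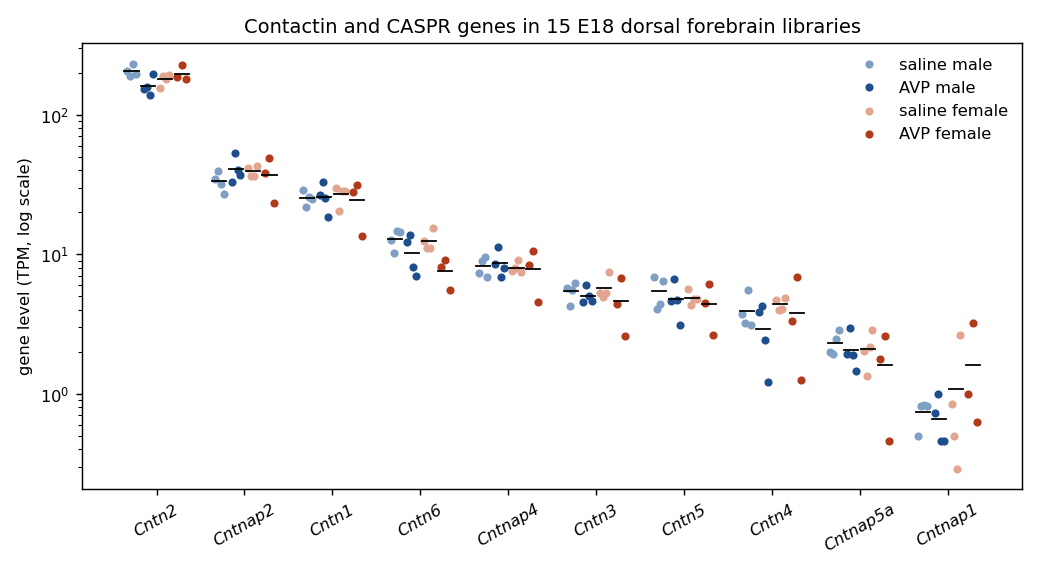
Level of each member (TPM, log axis) in the 15 libraries, ordered by the saline mean; each point is a library, colours mark the 4 groups and black lines the group means. Cntn2 lies between 137 and 232 TPM in every library, all other members lie at or below 53.3 TPM, and AVP female 3 is the lowest of the 15 points for 7 of the 10 genes.

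This order was tested between neighbours with an exact two-sided sign-flip permutation test of the within-library log2 ratio, over the 8 saline libraries, whose smallest possible p is 0.00781. Of 9 neighbouring pairs, 7 differed (Benjamini-Hochberg adjusted p from 0.0117 to 0.0201). Cntn2 was above Cntnap2 by 2.40 on the log2 scale, and Cntnap2 above Cntn1 by 0.47, in 8 of 8 libraries each. Cntn3 was above Cntn5 in 5 of 8 libraries (ratio 0.11, adjusted exact p = 0.305) and Cntn5 above Cntn4 in 6 of 8 (0.29, adjusted exact p = 0.105), so the order of these 3 did not hold beyond the spread.

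The second place of Cntnap2 belonged to short transcripts. Counting transcripts whose coding sequence reaches 90% of the longest one, full-length Cntnap2 came to 1.60 ± 0.225 TPM in saline libraries, 4.16% of the gene over all 15, and from second place to ninth. Its main transcript, Cntnap2-201, has 4 exons and had 30.6 TPM on average (19.3 to 43.6), 81.2% of the gene. A longer form from the internal start, Cntnap2-205, added 11.4%. Only 63 of the 1540 bases of Cntnap2-201 lie outside the exons of the full-length transcript, so the split rests on kallisto's estimate of where reads of shared sequence belong. In full-length TPM the neighbours Cntn5, Cntnap5a, Cntn4 and Cntnap2 were not separated (2.27, 2.20, 2.03 and 1.60 TPM, adjusted exact p from 0.141 to 1).

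**Figure D2:**
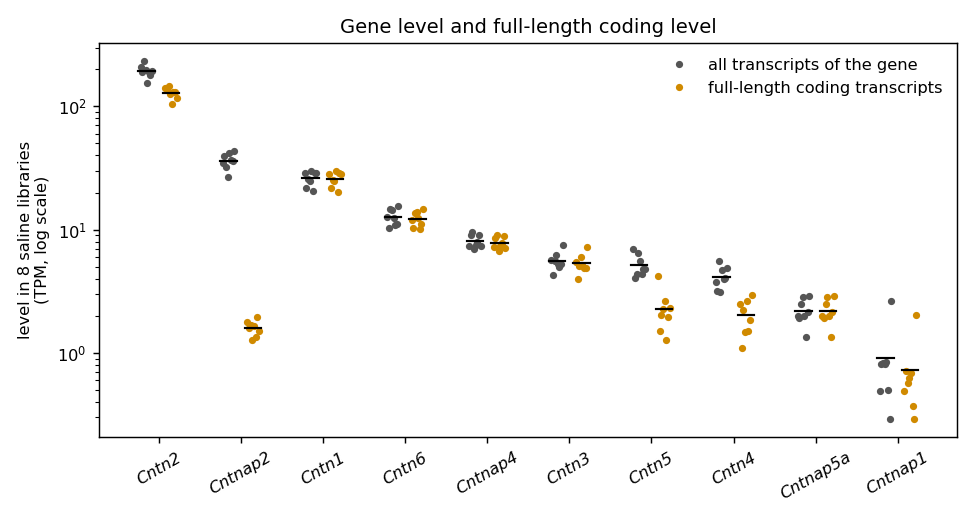
Level in the 8 saline libraries (TPM, log axis) summed over all transcripts of each gene (grey) and over full-length coding transcripts only (orange), with black lines at the means. Cntnap2 has 36.4 TPM in all and 1.60 TPM full-length, and the other members keep between 43.9% and 100% of theirs.

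Most of the other members were read mainly as whole coding transcripts. Full-length forms made up 99.6% of Cntn1, 97.3% of Cntn6, 96.7% of Cntnap4, 95.3% of Cntn3 and 100% of Cntnap5a over the 15 libraries. Cntn2 had 68.5% in its full-length transcript, Cntn2-201. A form marked for nonsense-mediated decay, Cntn2-207, held 12.9%, and one that keeps an intron, Cntn2-202, 10.4%. Cntnap1 had 82.0% full-length, Cntn4 55.6% and Cntn5 46.1%. For Cntn5 a second coding form, Cntn5-204, with 2679 nt of coding sequence against 3294, held 39.2%. The estimated share of Cntn1-201, from the second Cntn1 start, ran from 4.13% to 44.5% between libraries. Of its bases, 97.4% are also in Cntn1-204, from the first start, so this split too rests on kallisto's estimate. Cntn6 was divided between 2 transcripts with the same coding length of 3084 nt, Cntn6-201 with 69.1% and Cntn6-205 with 26.9%. The share of Cntn6-205 ran from 1.52% to 49.5%, and 97.2% of its bases are also in Cntn6-201, so only their sum is used below.

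The comparison of AVP with saline males asked whether the exposure changed the RNA of these families. With limma, 1 of 15271 genes (0.00655%) passed the adjusted threshold of 0.05, and it was no member, while 2057 (13.5%) had a p under 0.05 before adjustment. The median of all genes tested was -0.10 on the log2 scale, and 73.6% of genes were lower with AVP. Of the 9 members tested, 6 were lower and 3 higher, with a median of -0.16. Cntnap1 was under the filter of 1 TPM in 50% of libraries in each comparison.

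Cntn2 had the smallest p of the members. It measured 207, 190.2, 232 and 197 TPM in the saline males and 152, 158, 137 and 195 TPM in the AVP males. The groups overlapped through 1 library, AVP male 4, at 195 TPM; the other 3 AVP males were below every saline male. The difference was -0.37 (SE 0.11), which did not pass the adjustment over all genes (limma, adjusted p = 0.304; unadjusted p = 0.00843), and the exact permutation test gave p = 0.0571, where 0.0286 is the smallest 4 against 4 can give. With 1 library left out the difference lay between -0.47 (without AVP male 4, the library that overlaps) and -0.30 (without AVP male 3). Without saline male 3 it was -0.31 (SE 0.11, limma, adjusted p = 0.612). The difference was -0.36 within library numbers 1 to 8 and -0.38 within 13 to 20, with 2 libraries in each group. The second run holds saline male 3, the highest of all libraries in Cntn2, and no value without it was computed there.

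The transcripts of Cntn2 pointed the same way in males. All 6 tested had lower means with AVP, and 4 of them had an unadjusted p under 0.05, against 12.1% of the 39364 transcripts tested (limma, 4767), but none passed the adjustment, which 3 transcripts of other genes did (0.00762%). Cntn2-201, the full-length form, had 137.7 TPM in saline and 115 TPM in AVP males (-0.27, SE 0.11, limma, adjusted p = 0.405). Intron-keeping Cntn2-202 had 22.2 and 15.2 TPM (-0.57, SE 0.26, limma, adjusted p = 0.420). Without saline male 3 all 6 still had lower means, and 2 of them, both intron-keeping forms, an unadjusted p under 0.05, against 7.52% of 37726 transcripts (limma, 0 past the adjustment). From 49.0% to 97.2% of the bases of the other 5 lie in exons of Cntn2-201, so the 6 are not independent measurements.

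The level of Cntn6 in females, not in males, was part of the reason for the choice of genes, though earlier results of these data were known. Cntn6 in males was 12.5, 10.3, 14.6 and 14.4 TPM in saline and 12.2, 13.7, 8.05 and 7.02 TPM in AVP libraries. The groups overlapped, with 2 AVP males among the saline values and 2 below all of them. The difference of -0.36 (SE 0.22) did not pass (limma, adjusted p = 0.473; exact permutation p = 0.200), and it was -0.30 (SE 0.24) without saline male 3. Within library numbers 1 to 8 it was 0.18, and within 13 to 20 it was -0.90, with means of 14.5 TPM in saline and 7.53 TPM in AVP, 2 libraries in each group. Both AVP males below the saline range were in the second run, which also holds saline male 3, at 14.6 TPM. This change of sign was not particular to Cntn6. Cntn1, Cntn3, Cntn4, Cntn5, Cntnap1, Cntnap4 and Cntnap5a were also higher with AVP in the first run and lower in the second. Cntn4 had 0.19 and -1.05, and Cntnap5a 0.23 and -0.54. Cntn2 was lower in both runs and Cntnap2 higher in both (0.17 and 0.39).

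Cntnap2 was the member with the largest positive difference in males. Saline males had 34.8, 39.6, 31.9 and 26.9 TPM and AVP males 32.8, 53.3, 40.0 and 37.1 TPM. The groups overlapped, and the difference of 0.28 (SE 0.16) did not pass (limma, adjusted p = 0.464). Nearly all of it was in the short form: Cntnap2-201 averaged 26.3 and 33.8 TPM, and full-length Cntnap2-202 1.58 and 1.64 TPM, a difference of 0.0093 (SE 0.25). Cntn4 had 3.73, 3.20, 5.52 and 3.10 TPM in saline and 3.83, 4.23, 2.45 and 1.21 TPM in AVP males. That was a difference of -0.43 (SE 0.33, limma, adjusted p = 0.566), or 0.0061 (SE 0.36) over full-length transcripts. It was -0.13 without AVP male 4 and -0.27 without saline male 3. Cntn1 had 21.7 to 28.7 TPM in saline and 18.6 to 33.1 TPM in AVP males, and Cntnap4 6.90 to 9.57 and 6.92 to 11.3 TPM. For both, the groups overlapped and the AVP males spread wider than the saline males. Cntn3 had 4.26 to 6.21 and 4.53 to 6.01 TPM, Cntn5 4.06 to 6.90 and 3.11 to 6.60 TPM, and Cntnap5a 1.92 to 2.86 and 1.45 to 2.95 TPM, again with overlap. These 5 members differed by between -0.19 (Cntn5) and 0.067 (Cntnap4), each within 1 SE of 0 (limma, adjusted p from 0.753 to 0.977). Without saline male 3, limma called 0 of 15051 genes (0%; 1225 at an unadjusted p under 0.05), and the 9 members kept their signs, with Cntnap2 at 0.26 (SE 0.19), Cntn5 at -0.27 (SE 0.26), Cntnap4 at 0.14 (SE 0.18), Cntnap5a at -0.12 (SE 0.24), Cntn3 at -0.077 (SE 0.17) and Cntn1 at 0.024 (SE 0.19).

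**Figure D3:**
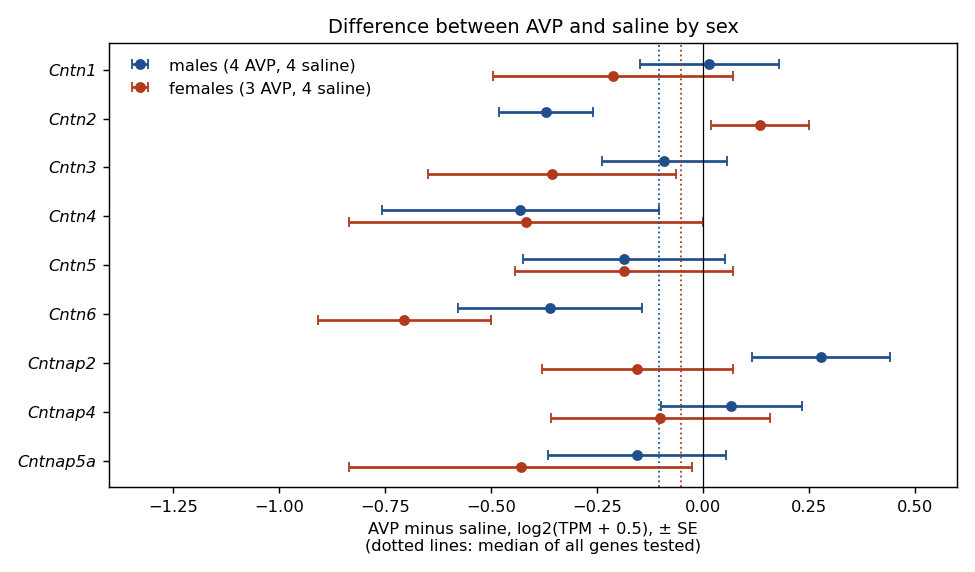
Difference between AVP and saline for the 9 members tested, on the log2(TPM + 0.5) scale (points, estimates; bars, ± SE), in males (blue) and females (red), with dotted lines at the median of all genes tested. Cntn2 is at -0.37 in males and 0.13 in females, and Cntn6 is at -0.36 and -0.70.

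In females, Cntn6 was the member on which the choice of these genes rested, so its values are a description. The saline females had 12.4, 10.99, 11.1 and 15.5 TPM, and the AVP females 8.15, 9.05 and 5.50 TPM. Every AVP female was below every saline female, as was so for 419 of the 15132 genes tested (2.77%). The mean was 12.5 ± 2.11 TPM (SD, n = 4) in saline and 7.56 ± 1.84 (n = 3) in AVP, a log2 difference of -0.70 (SE 0.20). Leaving out any 1 library gave values from -0.84 to -0.50. Within library numbers 1 to 8 the difference was -0.49, 1 AVP library against 2, and within 13 to 20 it was -0.85, 2 against 2. In full-length transcripts the AVP females had 8.13, 9.05 and 5.48 TPM and the saline females 10.2 to 14.8 TPM. No gene of the 15132 passed the adjusted threshold (limma, 0%), and 683 (4.51%) were under 0.05 before adjustment.

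Markers of meningeal fibroblasts separated the female groups. Of 11 meningeal fibroblast markers 10 were tested, all 10 had higher means with AVP (median log2 difference 0.88, 9 with an unadjusted p under 0.05 in limma and none past the adjustment), and their sum was 217 to 309 TPM in the AVP females against 127 to 156 TPM in the saline females. In males the sums overlapped (139 to 282 and 66.4 to 297 TPM). The 4 intermediate progenitor markers summed to 78.2 to 119 TPM against 66.8 to 92.1, and the 8 interneuron markers to 483 to 774 TPM against 673 to 850, both overlapping. All 8 interneuron markers were lower on average (1 with an unadjusted p under 0.05 in limma, none past the adjustment), and of all genes tested 63.1% were lower. All 10 striatal projection neuron markers were lower too (median log2 difference -0.62, none with an unadjusted p under 0.05 in limma). Their sums overlapped, 33.9 to 126 TPM with AVP and 59.8 to 150 TPM in saline. The 5 choroid plexus markers tested, of 8, were all higher (median 1.71, 2 with an unadjusted p under 0.05 in limma, none past the adjustment). Their sums overlapped as well (27.4 to 2277 and 8.56 to 958 TPM). Of 8 oligodendrocyte lineage markers 7 were tested, 6 lower and 1 higher (median -0.23). Of these 7, 2 had an unadjusted p under 0.05 in limma, both lower, and none passed the adjustment. The sums of this list overlapped too, 47.4 to 138 TPM with AVP and 80.6 to 135 TPM in saline. The part of any of these cells in the level of Cntn6 was not tested. In bulk tissue, fewer cells of a type and less RNA per cell cannot be told apart.

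**Figure D4:**
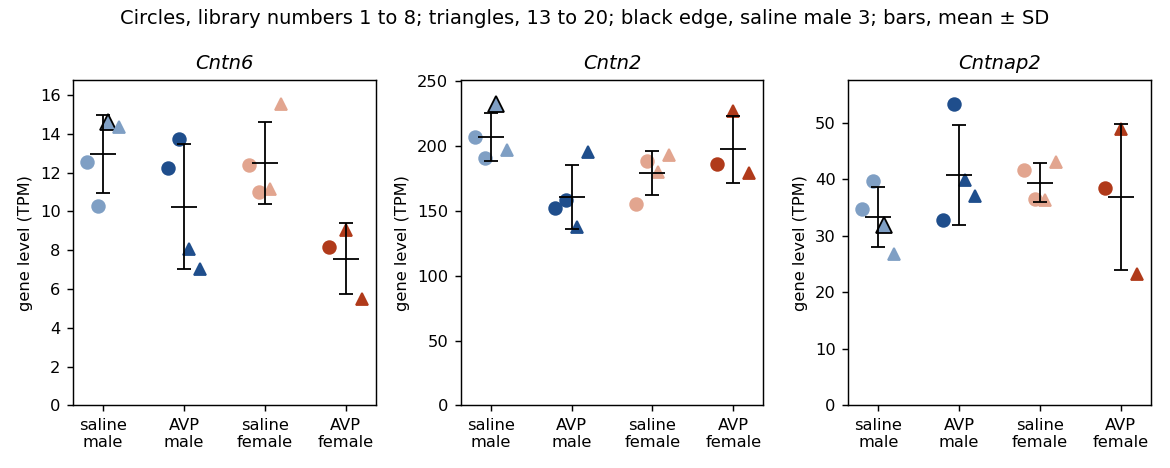
Level (TPM, axes from 0) of Cntn6, Cntn2 and Cntnap2 in each library by group, with the mean and SD; circles are library numbers 1 to 8, triangles 13 to 20, and a black edge marks saline male 3. The 3 AVP females lie at 5.50 to 9.05 TPM of Cntn6, below the 4 saline females at 10.99 to 15.5 TPM, and the 2 AVP males of the second run lie at 8.05 and 7.02 TPM.

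The other contactins and CASPRs did not separate in females. Cntn2 had 155, 188, 180.2 and 193 TPM in saline and 186, 227 and 179 TPM in AVP females, a difference of 0.13 (SE 0.12). Cntn1, at 29.8, 20.4, 28.6 and 28.6 TPM in saline, had 28.1, 31.4 and 13.4 TPM with AVP (-0.21, SE 0.28). For Cntn1, which pairs with CASPR1 and with receptor phosphatases, AVP female 3 was below all saline females and the other 2 were not. Cntn3 (-0.36, SE 0.29), Cntn4 (-0.42, SE 0.42), Cntn5 (-0.19, SE 0.26), Cntnap2 (-0.15, SE 0.22), Cntnap4 (-0.10, SE 0.26) and Cntnap5a (-0.43, SE 0.40) all overlapped between the groups. The median of the 9 members was -0.21, beside -0.051 for all genes. Without AVP female 3, the differences of Cntn1, Cntn4, Cntn5, Cntnap2, Cntnap4 and Cntnap5a became positive, 0.057 to 0.22, and that of Cntn6 was still -0.50.

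AVP female 3 was the lowest of the 15 libraries for 7 of the 10 members: Cntn1, Cntn3, Cntn5, Cntn6, Cntnap2, Cntnap4 and Cntnap5a. The 8 members that span over 200 kb of genome had a median deviation of -0.87 from their 15-library means in it, on the log2 scale. The library stood apart in other long genes too: 489 other protein-coding genes that span 300 kb or more had a median deviation of -0.48, against -0.14 to 0.19 in the other 14 libraries, while genes under 30 kb had -0.12. Cntn2, which spans 33.8 kb, deviated by -0.035 in it. Cntnap5a, spanning 903 kb, was at 0.459 TPM there and at 1.35 to 2.95 TPM elsewhere. Full-length Cntnap2, over 2245 kb, was at 0.346 TPM there and at 1.18 to 2.50 TPM elsewhere. The short Cntnap2-201 was at 19.3 TPM, against 20.6 to 43.6. Whether gene length has a part in the members' low values in this library was not tested.

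**Figure D5:**
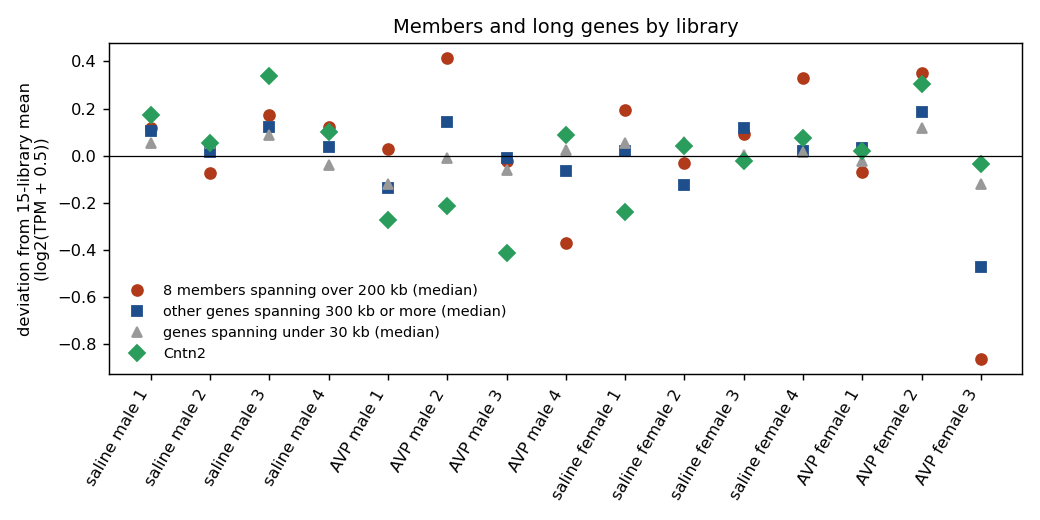
Deviation of each library from the 15-library mean (log2(TPM + 0.5)): the median of the 8 members spanning over 200 kb (red), of 489 other genes spanning 300 kb or more (blue), of genes under 30 kb (grey), and Cntn2 (green). AVP female 3 is at -0.87 for the long members and -0.48 for other long genes, and Cntn2 is at -0.035 there.

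The response to AVP was compared between the sexes in 1 fit of all 15 libraries, which uses the same libraries as the comparisons above. Limma called 0 of 15078 genes (0%), with 624 (4.14%) under 0.05 before adjustment. Of the 8 members tested, which leave out Cntn6 because of how it was chosen, Cntn2 alone was under 0.05 before adjustment. The female difference in Cntn2 exceeded the male by 0.50 (SE 0.17), which did not pass (limma, adjusted p = 0.896), and by 0.45 (SE 0.17) without saline male 3. For Cntn6 the female difference was 0.34 further below 0 than the male (SE 0.31). Cntnap2 differed by -0.43 (SE 0.29, limma, adjusted p = 0.896), and the others were within 1 SE of 0.

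Between the sexes without AVP, no member passed the adjustment, and Cntn2 alone had an unadjusted p under 0.05. Limma called 1 of 15385 genes (0.0065%), no member, and 639 (4.15%) were under 0.05 before adjustment. Cntn2 averaged 179 TPM in saline females and 206 TPM in saline males (-0.20, SE 0.088, limma, adjusted p = 0.928; unadjusted p = 0.0445). Without saline male 3, the library highest in Cntn2, this was -0.15 (SE 0.085). Cntnap2 averaged 39.4 and 33.3 TPM (0.25, SE 0.12, limma, adjusted p = 0.928). Cntn6 was at 12.5 and 12.9 TPM (-0.048, SE 0.15). Cntn4 was at 4.41 and 3.89 TPM (0.19, SE 0.18) and, without saline male 3, differed by 0.35 (SE 0.14, limma, adjusted p = 0.9999; unadjusted p = 0.0393). There 385 of 15159 genes (2.54%) were under 0.05 before adjustment.

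Cntnap1 was at about the 1 TPM filter level or below except in 2 libraries. It was between 0.289 and 1.001 TPM in 13 of them, and at 2.66 TPM in saline female 4 and 3.19 TPM in AVP female 2. These 2 libraries were also highest in Sox10, a transcription factor of the oligodendrocyte lineage, at 10.96 and 10.97 TPM against 1.55 to 5.68, while Pdgfra, Olig1, Olig2 and Cspg4, of the same lineage, were inside the range of the other libraries in both. Calb2, of the Cajal-Retzius list, was at 54.0 and 87.2 TPM against 9.89 to 28.2, but Trp73 and Lhx5 of that list were at 2.74 and 1.27 TPM in saline female 4 and 6.60 and 3.48 TPM in AVP female 2, near or at the 2 ends of their ranges. Of the other members, Cntn3 was also highest in these libraries, at 7.48 and 6.76 TPM with at most 6.21 elsewhere. Cntn4 was highest in AVP female 2 (6.83 TPM) and Cntn6 in saline female 4 (15.5 TPM), and the rest were highest in neither. The part of other cells in these values was not tested.

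Among 26 genes for partners of the families, chosen as lists, none passed the adjustment in either sex. In males 20 of the 26 were lower (median -0.14), 4 with an unadjusted p under 0.05, beside 73.6% lower and 13.5% under 0.05 for all genes. In females 20 were lower (median -0.12), beside 63.1% of all genes, with 0 under 0.05 before adjustment (4.51% of all genes). L1cam, an adhesion molecule of axons that binds contactin-2, had the smallest p in males: 190.2 to 257 TPM in the 4 saline males and 122 to 179 TPM in the 4 AVP males. The groups did not overlap, as was so for 998 of the 15271 genes in this direction (6.54%), and the difference was -0.62 (SE 0.14, limma, adjusted p = 0.304), or -0.58 (SE 0.16) without saline male 3. Adgrl1, the latrophilin that binds contactin-6, had 102 to 113 TPM in saline and 76.9 to 94.9 TPM in AVP males (-0.31, SE 0.077, limma, adjusted p = 0.304), and -0.32 (SE 0.088) without saline male 3. Aplp2, of the amyloid precursor family, differed by -0.20 (SE 0.082, limma, adjusted p = 0.348), and by -0.13 (SE 0.076) without saline male 3. The 3 CASPR genes that are no members here, Cntnap3, Cntnap5b and Cntnap5c, had male differences of 0.0064, 0.0052 and -0.16. Chl1, a partner of contactin-6 that lies 743 kb from it, had -0.0075 (SE 0.095).

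Cntn6 lies on chromosome 6 (104492790 to 104863406, plus strand) in a stretch of 4537 kb that holds 4 protein-coding genes. These are Cntn3 on the minus strand, then Chl1, Cntn6 and Cntn4 on the plus strand. In females Cntn4 differed by -0.42, Cntn3 by -0.36 and Chl1 by -0.21 (SE 0.18), all lower as Cntn6 was, and without AVP female 3 Cntn4 differed by 0.11 and Cntn3 by -0.043. Their differences from Cntn6 were not tested. No exon of Cntn6 overlapped an exon of another annotated gene. The same was true of Cntn1, Cntn2, Cntn3, Cntn4, Cntnap2 and Cntnap5a, while Cntn5, Cntnap1 and Cntnap4 each met 1 gene on the opposite strand, and the counting used strand.

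The genes most like and most unlike Cntn6 in their levels over the 15 libraries were also found. Of 13244 other protein-coding genes with a mean of at least 1 TPM, the 5 highest in Pearson's r, computed on log2(TPM + 0.5), were Grin1 (0.91), Rhof (0.90), Chgb (0.90), Osbpl1a (0.90) and Wscd2 (0.89). Grin1 encodes the obligatory subunit of NMDA receptors, Chgb a protein of secretory granules, and Rhof a small GTPase. The 5 lowest were Arhgap11a (-0.89), Mms22l (-0.85), Cdca3 (-0.84), Ube2c (-0.83) and Nme7 (-0.83). Arhgap11a, Cdca3 and Ube2c are expressed in cells that cycle. Grin1 averaged 30.5 TPM in saline and 22.3 TPM in AVP females, and 31.5 and 25.3 TPM in saline and AVP males. Arhgap11a averaged 9.84 and 15.9 TPM in the same groups of females, and 11.4 and 12.8 TPM of males. With group means removed, r was 0.84 for Grin1 and -0.88 for Arhgap11a. Without AVP female 3, which is lowest in Cntn6 and in Grin1, the r of Grin1 was 0.86. All points share the 15 libraries, and TPM shares 1 total within a library, so these are descriptions.

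Among themselves, the 8 members with long genes gave 28 pairs with r from 0.25 to 0.91 (median 0.70) over the 15 libraries, and from -0.18 to 0.78 (median 0.52) without AVP female 3. The lowest pair was Cntn6 with Cntnap2. Over the 15 libraries Cntn3 and Cntnap5a had r = 0.91, Cntn1 and Cntnap5a 0.86, and Cntn1 and Cntn5 0.85. Without AVP female 3 these were 0.78, 0.68 and 0.76. Cntn2 had r of -0.13 to 0.35 with each of the other 9. Cntn6 followed Cntnap5a most closely of the members (0.79, and 0.65 without AVP female 3).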

How the data were processed

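mRNA-seq libraries of E18 dorsal forebrain (TruSeq Stranded mRNA, paired-end) were analysed from 15 embryos. The authors trimmed adapters with Trim Galore 0.4.1, checked reads with FastQC 0.5.2 and quantified transcripts with kallisto 0.43.1 against GENCODE M16 (GRCm38), with bias correction and strand, and the deposited values are TPM: each library sums to 1000000, so its depth is unknown and no counting error can be given. The authors modelled the data in Sleuth 0.29.0, which was not used here.

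Groups were taken from the treatment and gender labels, and replicates were numbered in accession order. Per gene (GENCODE M21, 53337 genes), the TPM of its transcripts were added up. Of 133849 transcripts, 404 had no gene there (0.154% to 0.199% of TPM). A gene entered a comparison if 50% or more of its libraries had 1 TPM or more. The values log2(TPM + 0.5) were fitted in limma 3.58.1 (R 4.3.3, trend option), adjusting p-values by Benjamini-Hochberg at 0.05. Differences on this scale understate changes of low genes. Males and females were fitted separately, as in the study. Single members in males had exact two-sided permutation tests (R 4.3.3), and neighbouring levels had exact sign-flip tests (Python 3.11.15). The limma step was tested on simulated data. The members and gene lists were chosen with earlier results of these data known, so no test is adjusted over them alone, and no p is given for members in females or for the Cntn6 interaction. Genes named beside the members were the 3 partner genes with the smallest unadjusted p in males and the 5 highest and 5 lowest in correlation with Cntn6; Chl1, the other CASPR genes and the marker genes given for the 2 libraries high in Cntnap1 were named after their values were seen. Alternatives were other pseudocounts, filters, scalings, transcript sums, the run of library numbers as a covariate and each library left out.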

Additional observations from a re-analysis of the deposited data

Results flagged for a closer look

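In 30 sets of 4 libraries (10 members in 3 groups; the 3 AVP females were too few), 3 values stood apart from the other 3 by Dixon's test, where chance gives about 1.5. Cntn1 was at 20.4 TPM in saline female 2, below the 3 other saline females at 28.6 to 29.8 TPM. Cntn3 was at 7.48 TPM in saline female 4, above 4.94 to 5.25 TPM in the others. Cntnap1 was at 0.494 TPM in saline male 1, below 0.815 to 0.834 TPM in the other saline males.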

How the results depend on the processing

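The count of genes past the adjusted threshold moved with the settings. In males it was 1 and became 0 with a pseudocount of 1, a filter of 5 TPM, protein-coding transcripts, the run as a covariate or 1 fit of all libraries, and 0 to 6 with 1 library left out (6 without AVP male 2). In females it was 0 and 0 to 6 with 1 left out (6 without saline female 4), and in the interaction 0 and 0 to 1 (1 without saline male 1). Between the sexes in saline it was 1, became 0 with a pseudocount of 1, no filter, a filter of 5 TPM, protein-coding transcripts or 1 fit of all libraries, and was 0 to 4 with 1 left out (4 without saline female 4). For transcripts in males it was 3, 1 with a pseudocount of 1 and 0 to 11 with 1 left out (11 without AVP male 2). The cause was not tested. None of the 9 members tested was among the genes called in males or between the sexes in saline. In females, and for Cntn6 in the interaction, no p is given for members, so this was not looked up there. Cntn2 and Cntn6 in males kept a negative sign under all 18 alternatives (-0.47 to -0.27 and -0.51 to -0.20). Cntn6 in females, on which the choice of these genes rested, lay between -0.84 and -0.50 under 17, which is only a description. The male Cntn4 value became 0.0061 over full-length transcripts, an alternative chosen after the data were seen. The female Cntnap5a value lay between -0.78 and 0.057 with 1 library left out, positive without AVP female 3. The order of levels had 7 separated pairs of 9 and stayed within 1.5 times that count in all 12 alternatives. Quantile normalization moved the median of all genes in males from -0.10 to 0.02. No paired analysis was possible because the sources used here do not tie libraries to litters, so littermates across the sexes could not be accounted for. TPM hold no depth, and 3 or 4 libraries a group limit all tests.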
